A study of Homo sapiens with 12 samples.

Results

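The genes described are 43 genes of epithelial cell junctions, keratin filaments and epithelial-mesenchymal transition (EMT), the program by which epithelial cells lose their junctions and take on a fibroblast-like state. They were listed by name, with no threshold on their values, out of the 58288 gene IDs of the count table, and were split into 33 epithelial members (keratins, claudins and other tight junction proteins, polarity proteins, epithelial transcription and splicing regulators, surface protease inhibitors and apical proteins) and 10 mesenchymal members (7 EMT transcription factors and the markers VIM, S100A4 and L1CAM). They were measured by RNA sequencing in HK2 cells, an established line derived from human kidney proximal tubule and grown in DMEM with fetal bovine serum. The study asks how loss of folliculin (FLCN), the tumor suppressor mutated in Birt-Hogg-Dubé syndrome, changes such cells with time in culture. Short-term nontarget cells carried a nontargeting short hairpin RNA (shRNA) and had undergone fewer than 30 passages, and short-term FLCN knockdown cells carried an shRNA against FLCN at the same passage limit. The cells of both long-term groups carried the same kinds of shRNA and had undergone more than 120 passages by the labels, while the study's text states a lower limit. Each of the 4 groups had 3 libraries, labeled as biological replicates. The stable lines came from clonal selection, and no source used here ties a library to a clone, so a change due to the hairpin and one due to the selected clone cannot be told apart. For the same reason, a difference between short-term and long-term cells due to time and one due to clone cannot be told apart.

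Epithelial cells are held together by tight junctions, in which claudins, occludin and related membrane proteins seal the space between neighbors and bind scaffold proteins such as TJP1 and cingulin, while polarity complexes set the apical side apart from the basal side. Keratins 8 and 18 pair into the intermediate filaments of simple epithelia, whereas mesenchymal cells build theirs from vimentin. In EMT, transcription factors of the SNAI, ZEB and TWIST families bind E-box sequences in promoters of junction genes and repress them, and factors such as GRHL2, OVOL1 and the splicing regulators ESRP1 and ESRP2 act in the opposite sense. Cultured proximal tubule lines commonly express keratins and vimentin together.

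Totals were 5825779 to 8991051 counts per library. Levels are given as CPM (counts scaled to the same total in every library, here with TMM factors) in replicates 1, 2 and 3 of a group. Differences are log2 fold changes of edgeR's quasi-likelihood fit over all 12 libraries. They are shrunken by a prior count of 2, more so at few counts. A gene was called at a Benjamini-Hochberg adjusted p below 0.05 over the 13959 genes tested. FLCN had 12.7, 16.7 and 16.5 CPM in short-term nontarget cells and 5.95, 6.58 and 5.66 CPM after short-term knockdown, and 9.92, 11.9 and 12.2 CPM in long-term nontarget cells and 6.7, 6.31 and 7.97 CPM after long-term knockdown. The knockdown libraries were below every nontarget library of their time (log2 fold change −1.29, SE 0.174, edgeR adjusted p = 0.000112 short-term; −0.68, SE 0.173, edgeR adjusted p = 0.00611 long-term). Of 20 proximal tubule markers, 6 to 10 had no count in a group, the endocytic receptor LRP2 and the transcription factor HNF4A had none in any library, and the list summed to 226.1 to 296.4 CPM per library, mostly from GPX3 and GGT1. Markers of other cell types were low: summed endothelial markers reached at most 2.46 CPM and leukocyte markers 1.39 CPM, and the 10 fibroblast markers summed to 50.1 to 59.3 CPM in short-term and 26.8 to 37.3 CPM in long-term libraries. Of 16 markers of other nephron segments, 10 were at 0 in each group, and the list summed to 8.04 to 14 CPM in long-term nontarget and 5.43 to 6.93 CPM in long-term knockdown libraries. The part of these lists in the results below was not tested. In such bulk samples, fewer cells of a kind and less RNA per cell cannot be told apart.

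Among the members, the highest levels per kilobase of exon belonged to KRT8 (274.6 CPM per kilobase, mean of 12 libraries), KRT18 (239.4) and VIM (189.4), so keratin and vimentin transcripts were abundant side by side in these cells. KRT80 followed with 86.0, then CLDN1 with 50.3, the protease inhibitor SPINT2 with 42.0 and the adhesion molecule L1CAM with 35.8 CPM per kilobase. At the other end, KRT5 (the basal keratin), GRHL2 and TWIST2 had 0 counts among the 83920506 counts of all libraries, which allows a level of up to 0.0357 CPM for each, counting error only. A further 6 members had too few counts to be tested: RAB25 with 1 count, OVOL1 with 4, KRT17 with 8, CLDN7 with 19, MARVELD3 with 24 and TJP3 with 80 counts in all. MARVELD3 had 15 of its 24 counts in short-term FLCN knockdown cells, 10 of them in replicate 2 alone. The remaining 34 members, 25 epithelial and 9 mesenchymal, were tested. The order of levels per kilobase is shown in the plot of members by length-scaled level.

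**Figure D1:**
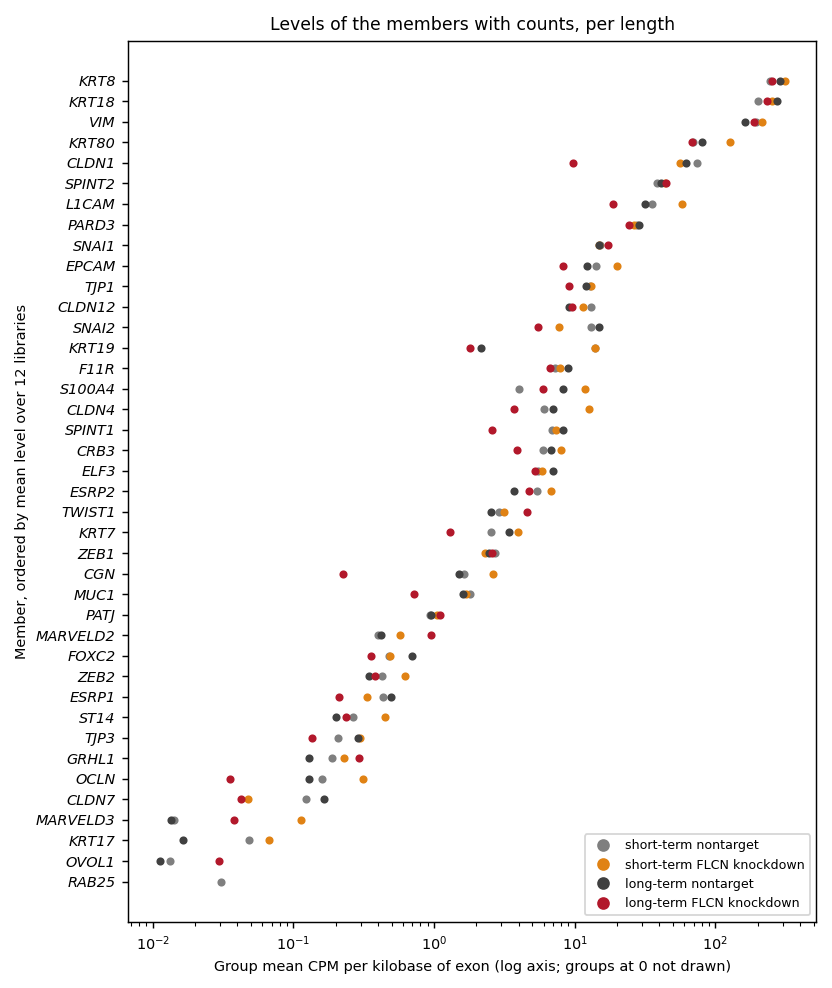
Mean level of each member in each group, in CPM per kilobase of exon on a log axis, for the 40 members with at least 1 count, ordered by their mean over the 12 libraries. Groups at 0 are not drawn. CLDN1 and CGN have the long-term FLCN knockdown group (red) far to the left of the others and KRT19 has both long-term groups to the left.

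The start regions of 4 members that fell after long-term FLCN knockdown are shown because 2 of them, CLDN1 and CGN, had the largest falls and the other 2, CRB3 and MUC1, hold more than 1 copy of CAGGTG, the E-box letters that SNAI and ZEB factors bind. RefSeq promoters of GRCh38.p14, from 250 bases before to 50 bases after the start and written 5′ to 3′ on the gene's strand, were found for 24 of the 43 members. Capitals mark CAGGTG on either strand (CACCTG on the opposite one) and AACCNGTT on either strand, a form of the letters that grainyhead-like factors bind. The 2 patterns did not overlap. The windows are chr3:190322397-190322696 (minus strand) for CLDN1, chr1:151511137-151511436 (plus strand) for CGN, chr19:6464021-6464320 (plus strand) for CRB3 and chr1:155192866-155193165 (minus strand) for MUC1.
CLDN1: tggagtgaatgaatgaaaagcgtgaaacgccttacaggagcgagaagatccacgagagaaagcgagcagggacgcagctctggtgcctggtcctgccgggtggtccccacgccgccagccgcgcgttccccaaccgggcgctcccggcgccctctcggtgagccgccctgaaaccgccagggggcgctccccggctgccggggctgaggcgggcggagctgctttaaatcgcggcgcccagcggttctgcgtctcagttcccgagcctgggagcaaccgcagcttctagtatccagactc
CGN: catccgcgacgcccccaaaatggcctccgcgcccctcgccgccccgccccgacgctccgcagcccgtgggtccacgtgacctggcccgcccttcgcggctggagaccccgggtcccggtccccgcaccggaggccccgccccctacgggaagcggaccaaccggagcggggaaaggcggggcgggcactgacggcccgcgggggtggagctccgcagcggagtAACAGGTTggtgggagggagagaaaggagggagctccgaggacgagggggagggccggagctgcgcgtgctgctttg
CRB3: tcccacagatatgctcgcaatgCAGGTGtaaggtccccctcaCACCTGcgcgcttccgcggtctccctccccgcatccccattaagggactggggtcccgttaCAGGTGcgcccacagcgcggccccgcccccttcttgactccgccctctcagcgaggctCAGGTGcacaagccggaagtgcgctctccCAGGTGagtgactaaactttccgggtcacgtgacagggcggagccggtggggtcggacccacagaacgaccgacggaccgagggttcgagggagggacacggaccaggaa
MUC1: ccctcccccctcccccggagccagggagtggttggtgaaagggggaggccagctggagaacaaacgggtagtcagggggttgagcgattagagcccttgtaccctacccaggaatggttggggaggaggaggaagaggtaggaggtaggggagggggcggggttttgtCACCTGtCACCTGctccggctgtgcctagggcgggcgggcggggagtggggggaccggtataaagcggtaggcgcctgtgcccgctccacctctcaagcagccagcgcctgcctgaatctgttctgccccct
CRB3 held 5 copies of CAGGTG and MUC1 held 2, while CLDN1 and CGN held none and CGN held 1 match of AACCNGTT. CAGGTG was present in 8 of 18 epithelial (44.4%) and 2 of 6 mesenchymal members (33.3%), against 20.6% of 35116 promoters of the same length, and AACCNGTT in 1 of 18 epithelial and 0 of 6 mesenchymal members, against 1.73%. Of the 9 matched members that were called lower after long-term knockdown, 4 held CAGGTG (TJP1, CRB3, ELF3 and MUC1), and of the other 15, 6 did. A match is a description of the letters only.

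After long-term FLCN knockdown, 12 of the 25 epithelial members tested were lower than in long-term nontarget cells and 1 was higher. The 12 were CLDN1, CGN, SPINT1, KRT7, MUC1, ESRP1, CLDN4, CRB3, EPCAM, F11R, ELF3 and TJP1, and the member that rose was MARVELD2. Across all genes tested, 29.5% were called in this comparison, 13.7% higher and 15.8% lower, and the median log2 fold change was −0.41 over the epithelial members against 0.00 over all genes. Among the 9 mesenchymal members, TWIST1 rose, SNAI2 and L1CAM fell and the other 6 were not called, with a median of 0.08. The long-term groups did not overlap in 15 of the 16 members called, all but ESRP1, which is close to the 95.8% among all 4119 genes called.

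**Figure D2:**
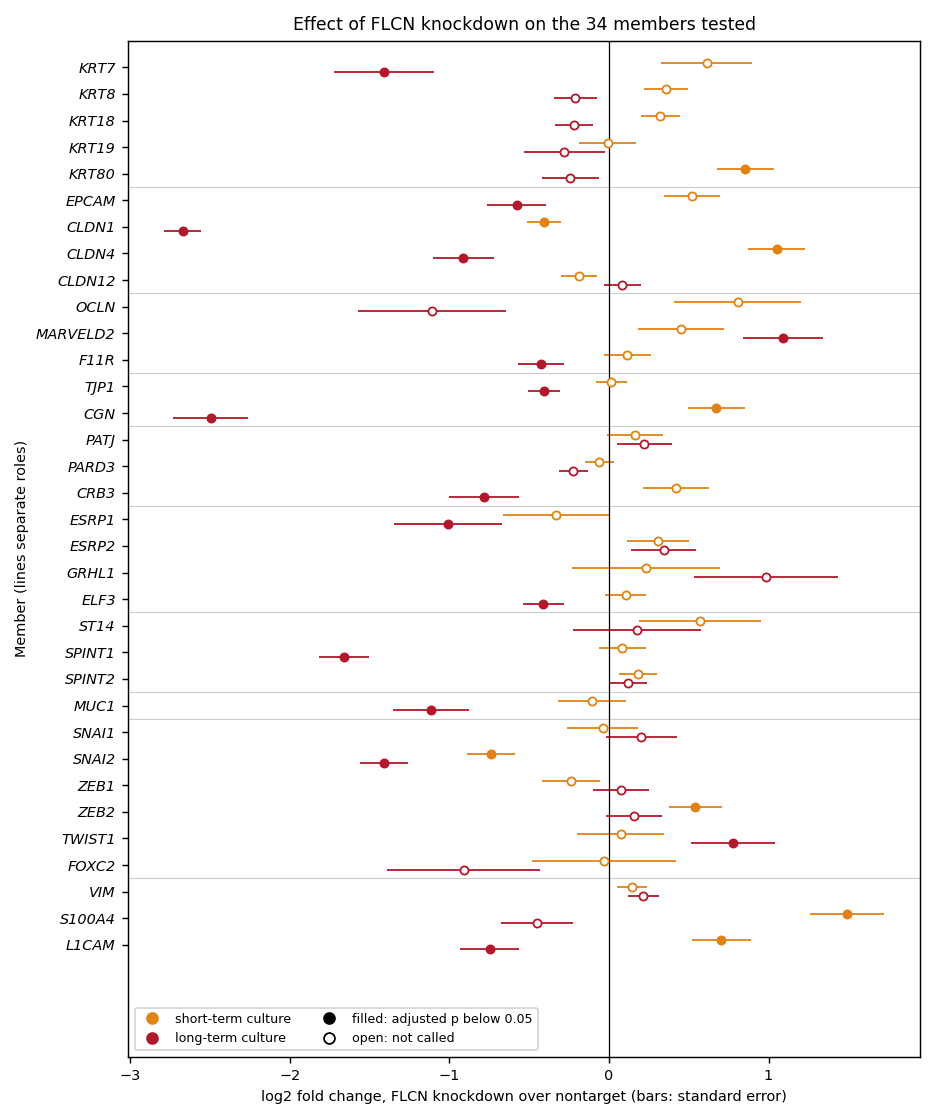
Log2 fold change of each of the 34 members tested after short-term (orange) and long-term (red) FLCN knockdown over the nontarget cells of the same time. Bars are standard errors, filled points have an edgeR adjusted p below 0.05, and lines separate the roles. CLDN1 and CGN lie furthest to the left long-term (−2.67 and −2.50), and CLDN4, CGN and L1CAM have filled points on opposite sides of 0.

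Short-term FLCN knockdown moved fewer members. Of the 25 epithelial members, KRT80, CLDN4 and CGN rose and CLDN1 fell, with a median log2 fold change of 0.23 against 0.00 over all genes. Of the 9 mesenchymal members, S100A4, L1CAM and ZEB2 rose and SNAI2 fell, with a median of 0.07. Across all genes, 10.3% were called, 5.62% higher and 4.71% lower. Both knockdown comparisons, which share no library, called 5 of the 34 members, against 6.28% of all genes tested. CLDN1 and SNAI2 fell in both (5.01% of all genes were called in the same direction), whereas CLDN4, CGN and L1CAM rose short-term and fell long-term (1.27% of all genes were called in opposite directions).

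Whether knockdown acted differently at the 2 times was tested as an interaction, the long-term log2 fold change minus the short-term one. It was called for 11 of 25 epithelial members (KRT7, KRT18, KRT80, EPCAM, CLDN1, CLDN4, OCLN, CGN, CRB3, SPINT1 and MUC1) and 3 of 9 mesenchymal members (SNAI2, S100A4 and L1CAM). In all 14 the long-term effect was the lower one. Over all genes tested 13.4% were called, 4.98% with the higher and 8.43% with the lower long-term effect. The medians were −0.54 for epithelial and −0.38 for mesenchymal members, against 0.00 over all genes.

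Long-term and short-term nontarget cells differed in 4 members. In long-term relative to short-term nontarget cells, KRT18 was higher and KRT19 and CLDN12 were lower among the 25 epithelial members (median 0.04, all genes 0.01), and S100A4 was higher among the 9 mesenchymal members (median −0.15). Over all genes 7.55% were called, 3.17% higher and 4.38% lower. In long-term relative to short-term FLCN knockdown cells, 12 epithelial members were lower (KRT7, KRT19, KRT80, EPCAM, CLDN1, CLDN4, OCLN, TJP1, CGN, CRB3, SPINT1 and MUC1) and MARVELD2 was higher (median −0.53), and SNAI2, ZEB2, S100A4 and L1CAM were lower among the mesenchymal members (median −0.39). Over all genes 26.6% were called, 11.5% higher and 15.2% lower, with a median of 0.01. This last comparison shares its libraries with both knockdown comparisons and is not independent of them.

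**Figure D3:**
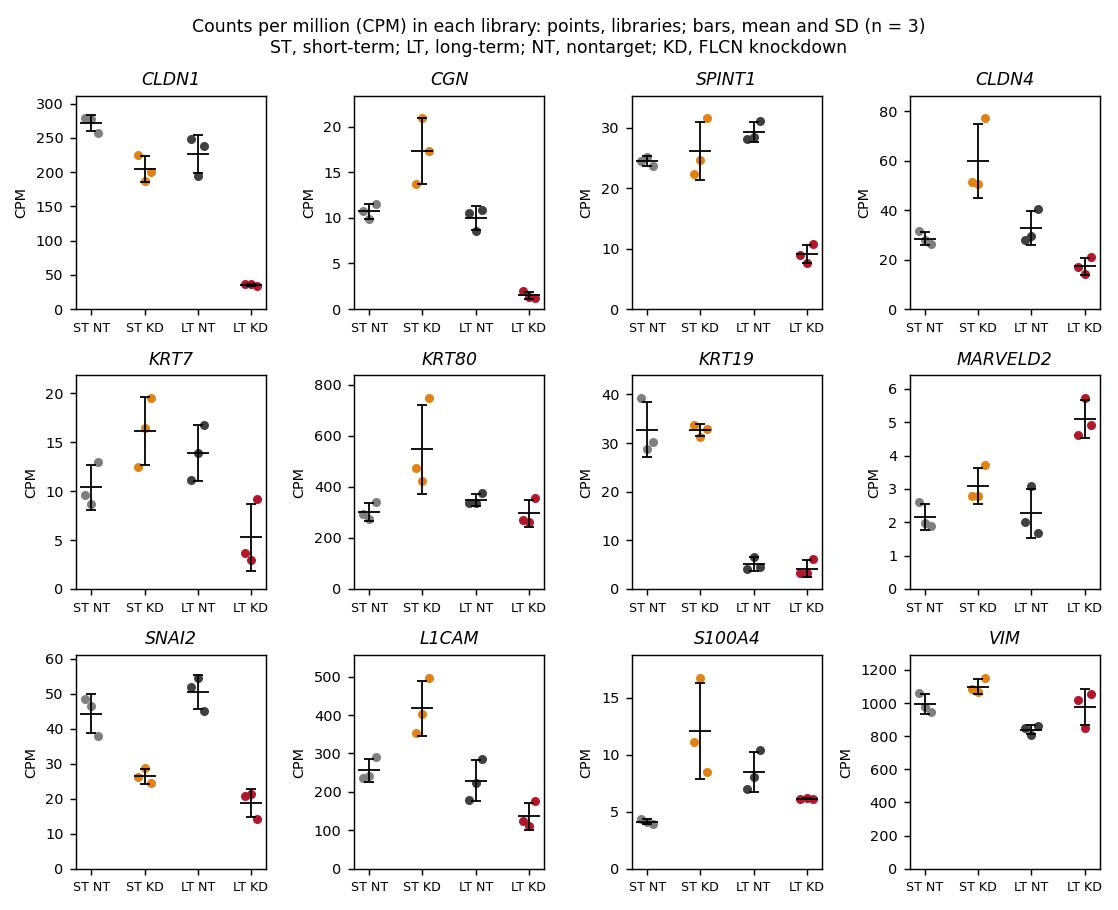
CPM of 12 members in each library (points), with mean and SD of 3 libraries per group (bars), for short-term (ST) and long-term (LT), nontarget (NT) and FLCN knockdown (KD) cells, each axis starting at 0. CLDN1, CGN and SPINT1 are lowest in LT KD, KRT19 is low in both LT groups, SNAI2 is low in both KD groups and MARVELD2 is highest in LT KD.

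Keratins form the filaments that give epithelial cells their strength. KRT7, a keratin of ducts and collecting system, had 9.57, 8.66 and 13.0 CPM in short-term nontarget and 12.5, 16.5 and 19.5 CPM in short-term knockdown cells, and 11.1, 13.9 and 16.8 CPM in long-term nontarget and 3.7, 2.93 and 9.16 CPM in long-term knockdown cells. Every long-term knockdown library was below every long-term nontarget library, although replicate 3 was over 2 times as high as the other 2, and the short-term groups overlapped. The long-term log2 fold change was −1.41 (SE 0.311, edgeR adjusted p = 0.0026), the short-term one 0.61 (SE 0.286, edgeR adjusted p = 0.213), and the difference between them −2.02 (SE 0.422, edgeR adjusted p = 0.00378). The short-term value of KRT7 was called without the filter (0.61, edgeR adjusted p = 0.0276) and without replicate 3 of every group (0.65, edgeR adjusted p = 0.0293).

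KRT80, a type II keratin, had 292.9, 274.1 and 341.2 CPM in short-term nontarget and 475.0, 421.5 and 747.2 CPM in short-term knockdown cells. It had 337.2, 335.0 and 377.3 CPM in long-term nontarget and 269.5, 260.6 and 357.0 CPM in long-term knockdown cells. The short-term groups were apart and the long-term groups overlapped, with replicate 3 the highest in each group. KRT80 rose short-term (0.85, SE 0.178, edgeR adjusted p = 0.00547), had −0.24 long-term (edgeR adjusted p = 0.339) and differed between the effects by −1.10 (SE 0.251, edgeR adjusted p = 0.00774). With the replicate number as a block (1 shared effect per replicate number over all 4 groups), the long-term value was −0.26 and was called (edgeR adjusted p = 0.0403).

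KRT19, the smallest keratin and a marker of ductal epithelia, was lower in both long-term groups than in both short-term groups. It had 39.2, 28.7 and 30.3 CPM in short-term nontarget and 33.7, 31.3 and 32.9 CPM in short-term knockdown cells, against 4.02, 6.66 and 4.53 CPM in long-term nontarget and 3.24, 3.23 and 6.11 CPM in long-term knockdown cells. All 6 long-term libraries were below all 6 short-term ones. The log2 fold change with time was −2.64 in nontarget cells (SE 0.212, edgeR adjusted p = 4.69e-07) and −2.91 in knockdown cells (SE 0.219, edgeR adjusted p = 3.07e-08), while knockdown gave −0.01 in short-term cells (edgeR adjusted p = 0.988) and −0.28 in long-term cells (edgeR adjusted p = 0.448).

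The pair KRT8 and KRT18 summed to between 2136.2 and 3508.2 CPM per library and made up most of the CPM of the epithelial members. Their ratio ranged from 2.1 to 2.87. KRT8 had 1741.7, 1655.4 and 1643.8 CPM in short-term nontarget, 2003.1, 1873.1 and 2587.1 CPM in short-term knockdown, 1879.5, 1890.5 and 2220.4 CPM in long-term nontarget and 1614.7, 1456.5 and 2107.1 CPM in long-term knockdown cells. It was called in no comparison, the lowest edgeR adjusted p being 0.062 for the interaction (−0.57, SE 0.194). The interaction of KRT8 was called with DESeq2 (adjusted p = 0.0435) and by edgeR without the filter (adjusted p = 0.00426), which also called its short-term rise (0.0193) and its value with time in knockdown cells (0.0274). Against short-term knockdown cells, long-term knockdown cells had −0.32 (edgeR adjusted p = 0.0971), and the replicate block called this value (−0.32, edgeR adjusted p = 0.00757). KRT18 rose with time in nontarget cells, from 706.8, 655.8 and 571.9 to 895.6, 859.9 and 872.6 CPM (0.44, SE 0.12, edgeR adjusted p = 0.0307), and its interaction was −0.54 (SE 0.17, edgeR adjusted p = 0.0427). The call with time was lost without any 1 of 5 of the 6 nontarget libraries, all but short-term replicate 1 (edgeR adjusted p up to 0.148), and the interaction was lost without any 1 of 8 of the 12 libraries (up to 0.115). The exons of KRT8 and KRT18 overlap on opposite strands, and KRT8 has 50 named pseudogenes with 4851 counts against its own 157082, so part of the counts of this pair cannot be assigned, a share that was not measured for the overlap.

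Claudins are the membrane proteins that seal tight junctions. CLDN1, the barrier-forming claudin (ENSG00000163347.5, chr3:190305701-190322475, minus strand, its start region shown above), had 278.2, 277.9 and 257.7 CPM in short-term nontarget and 225.5, 187.6 and 200.2 CPM in short-term knockdown cells, and 247.5, 194.5 and 237.5 CPM in long-term nontarget and 35.9, 36.2 and 33.8 CPM in long-term knockdown cells. Both knockdown groups were wholly below the nontarget cells of their time, and the 3 long-term knockdown libraries differed little among themselves. CLDN1 fell by 84.3% long-term (−2.67 ± 0.114 as log2 fold change and SE, edgeR adjusted p = 4.53e-11) and fell by 24.6% short-term (−0.41, SE 0.104, edgeR adjusted p = 0.0169). The effects differed by −2.26 (SE 0.152, edgeR adjusted p = 2.23e-08). The short-term call was lost without short-term nontarget replicate 1 or 2 or short-term knockdown replicate 2 (edgeR adjusted p up to 0.0832), and the long-term call was kept without any 1 library.

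CLDN4, a claudin of collecting duct and other tight epithelia, moved in opposite directions. It had 31.4, 27.9 and 26.2 CPM in short-term nontarget and 51.4, 50.7 and 77.0 CPM in short-term knockdown cells, and 28.1, 29.7 and 40.4 CPM in long-term nontarget and 17.0, 14.1 and 21.0 CPM in long-term knockdown cells. The groups were apart at both times. It rose by 1.05 short-term (SE 0.181, edgeR adjusted p = 0.001) and fell by 0.91 long-term (SE 0.191, edgeR adjusted p = 0.00141), a difference of −1.96 (SE 0.263, edgeR adjusted p = 5.23e-05).

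EPCAM, the adhesion molecule that binds and stabilizes claudins, had 35.7, 39.2 and 31.4 CPM in short-term nontarget and 57.2, 60.5 and 34.3 CPM in short-term knockdown cells, so replicate 3 of the knockdown lay within the nontarget range. In long-term cells it had 32.4, 33.9 and 26.5 CPM without and 19.6, 18.9 and 23.4 CPM with knockdown, with no overlap. Its short-term value was 0.52 (SE 0.174, edgeR adjusted p = 0.0692) and its long-term value −0.58 (SE 0.184, edgeR adjusted p = 0.0237), which differed by −1.10 (SE 0.253, edgeR adjusted p = 0.00674). The short-term rise of EPCAM was called without the filter (0.52, edgeR adjusted p = 0.00722) and without replicate 3 of every group (0.65, edgeR adjusted p = 0.000263), the latter chosen after seeing the data. The long-term call was lost without long-term nontarget replicate 1 or 2 or long-term knockdown replicate 1 or 2 (edgeR adjusted p up to 0.0803). The 40 tested genes nearest to EPCAM on chromosome 2 had a median log2 fold change of 0.23 short-term and 0.44 long-term, and their part in the EPCAM values was not tested. CLDN12, another claudin, fell with time in nontarget cells, from 96.8, 84.7 and 81.9 to 71.4, 57.3 and 54.3 CPM (−0.52, SE 0.115, edgeR adjusted p = 0.00829), a call lost without short-term nontarget replicate 1 (0.0648). Its exons overlap those of CDK14 and GTPBP10, and in that comparison the median over its 40 nearest neighbors was −0.40.

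Of the other tight junction membrane proteins, MARVELD2 (tricellulin, which closes the corners where 3 cells meet) was the member that rose. It had 2.6, 1.97 and 1.89 CPM in short-term nontarget, 2.78, 2.78 and 3.72 CPM in short-term knockdown, 2.01, 3.1 and 1.68 CPM in long-term nontarget and 4.62, 5.72 and 4.92 CPM in long-term knockdown cells. The long-term groups were apart, with 48 counts over the nontarget and 108 over the knockdown libraries (1.09, SE 0.250, edgeR adjusted p = 0.003). Its rise from short-term to long-term knockdown cells (0.68, edgeR adjusted p = 0.0479) was lost without any of 5 of the 6 libraries, all but short-term knockdown replicate 3 (edgeR adjusted p up to 0.163), and with DESeq2 (0.147), without the filter (0.0929) or with only those 2 groups (0.0641).

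OCLN, which encodes occludin, was scarce, with 22 counts over the short-term nontarget, 43 over the short-term knockdown, 18 over the long-term nontarget and 5 over the long-term knockdown libraries. In CPM the replicates had 1.37, 0.456 and 1.41, then 1.77, 2.78 and 1.77, then 0.938, 1.39 and 0.259, and 0.231, 0.147 and 0.339 after long-term knockdown. The long-term groups overlapped (−1.11, SE 0.463, edgeR adjusted p = 0.0829), whereas long-term knockdown cells were wholly below short-term knockdown cells (−2.20, SE 0.446, edgeR adjusted p = 0.00131). The means of those 2 knockdown groups were 0.239 and 2.11 CPM, further apart than the shrunken −2.20. The difference between the effects, −1.92 (edgeR adjusted p = 0.0478), was lost with DESeq2 (−2.82, adjusted p = 0.0782) and without any 1 of 10 of the 12 libraries, all but long-term replicates 3 (edgeR adjusted p up to 0.158). At so few counts the long-term value also moved with the tool, to −1.85 with DESeq2 and to −1.76 with a smaller prior count, neither of them called. F11R, the junctional adhesion molecule JAM-A, had 46.0, 48.0 and 43 CPM in long-term nontarget and 36.1, 37.0 and 28.3 CPM in long-term knockdown cells (−0.43, SE 0.145, edgeR adjusted p = 0.0345), a call lost without long-term nontarget replicate 1 or 2 or long-term knockdown replicate 1 or 3 (up to 0.119).

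Scaffold and polarity proteins lie under the junction membrane. CGN, which encodes cingulin, the link between tight junctions and actomyosin (ENSG00000143375.14, chr1:151510510-151538692, plus strand), had 10.8, 9.87 and 11.5 CPM in short-term nontarget and 13.7, 20.9 and 17.3 CPM in short-term knockdown cells, and 10.5, 8.52 and 10.9 CPM in long-term nontarget and 1.96, 1.32 and 1.19 CPM in long-term knockdown cells. Each knockdown group lay wholly above or wholly below its nontarget group. The rise was 0.67 short-term (SE 0.180, edgeR adjusted p = 0.0225) and the long-term log2 fold change −2.50 (SE 0.237, edgeR adjusted p = 4.38e-07, 217 against 33 counts), and the difference of −3.17 was the largest among the members (SE 0.298, edgeR adjusted p = 1.26e-06). The short-term call was lost without short-term nontarget replicate 1 or 2 or short-term knockdown replicate 2 (edgeR adjusted p up to 0.123).

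TJP1 (ZO-1), the main tight junction scaffold, had 132.9, 145.1 and 128.5 CPM in long-term nontarget and 104.5, 107.0 and 94.5 CPM in long-term knockdown cells, and fell by 24.6% (−0.41, SE 0.0985, edgeR adjusted p = 0.0043), and short-term the log2 fold change was 0.01. CRB3, the small membrane protein of the apical Crumbs complex (ENSG00000130545.15, chr19:6463777-6467221, plus strand), had 8.58, 11.5 and 12.2 CPM in long-term nontarget and 5.43, 4.84 and 8.31 CPM in long-term knockdown cells (−0.78, SE 0.218, edgeR adjusted p = 0.0111), with 8.47, 9.57 and 10.2 and then 12.1, 10.4 and 15.8 CPM in the short-term groups (0.42, edgeR adjusted p = 0.238). The effects of CRB3 differed by −1.20 (SE 0.301, edgeR adjusted p = 0.0115). Its long-term call was lost without long-term knockdown replicate 1 or 2 (up to 0.0565). Its exons overlap those of DENND1C on the opposite strand. PARD3 and PATJ, scaffolds of the PAR and Crumbs complexes, were called in no comparison: PARD3 had −0.22 long-term (edgeR adjusted p = 0.0724, with DESeq2 0.0464, and −0.22 with adjusted p = 0.035 with the replicate block) and PATJ 0.22 (0.376).

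**Figure D4:**
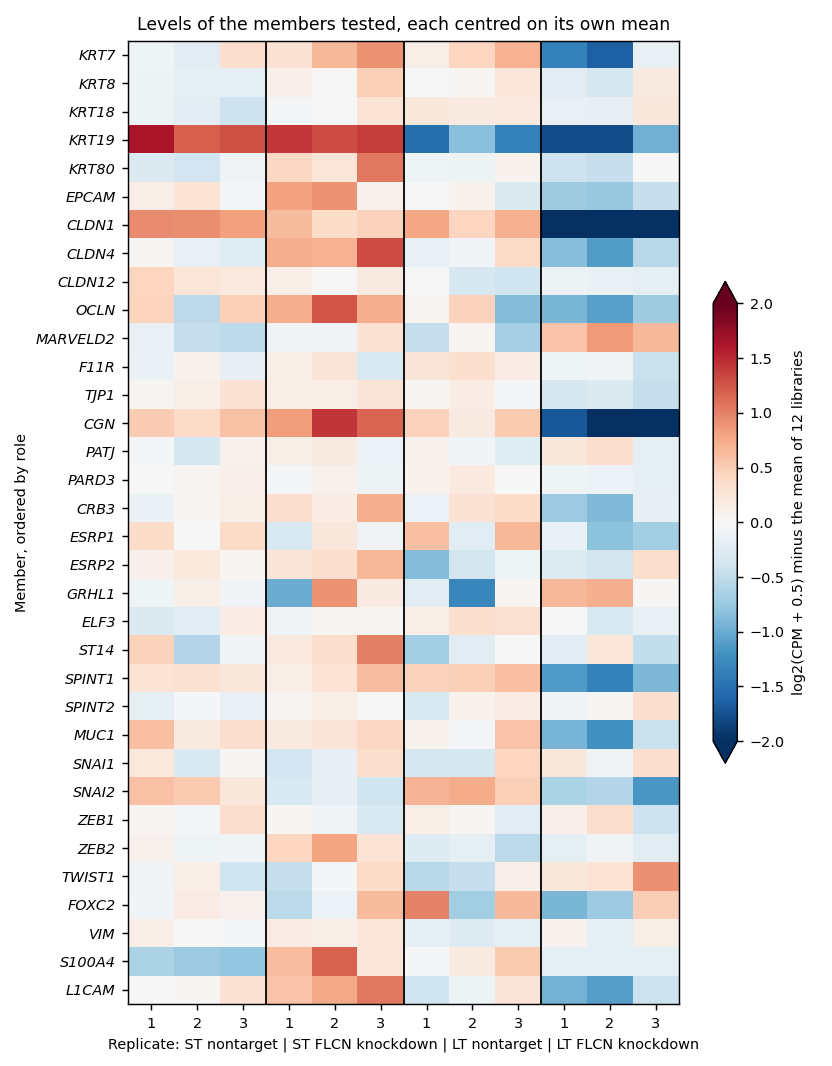
Level of each member tested in the 12 libraries as log2(CPM + 0.5) minus the member's own mean, ordered by role, with red above and blue below that mean and colors saturating at 2. The 3 long-term FLCN knockdown libraries at the right are blue for KRT7, CLDN1, CLDN4, CGN, CRB3, SPINT1 and MUC1 and red for MARVELD2, and both long-term groups are blue for KRT19.

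Among the epithelial regulators, ELF3, an epithelial ETS factor, had 46.1, 53.3 and 52.1 CPM in long-term nontarget and 41.7, 34 and 37.8 CPM in long-term knockdown cells (−0.41, SE 0.127, edgeR adjusted p = 0.0208), a call lost without long-term nontarget replicate 2 or 3 or long-term knockdown replicate 2 (up to 0.0862). ESRP1, an epithelial splicing factor, had 53 counts over the long-term nontarget and 23 over the long-term knockdown libraries, with 2.81, 1.39 and 2.98 against 1.5, 0.734 and 0.848 CPM, which overlapped. Its call (−1.01, SE 0.337, edgeR adjusted p = 0.0312) was lost with DESeq2 (adjusted p = 0.0828), with only those 2 groups (0.0564) and without long-term nontarget replicate 1 or 3 or long-term knockdown replicate 2 or 3 (up to 0.122). ESRP2, its more abundant paralog with 14.9 to 43.9 CPM, was not called: it had 0.34 long-term (edgeR adjusted p = 0.226), and −0.50 from short-term to long-term knockdown cells (edgeR adjusted p = 0.0705, −0.51 with adjusted p = 0.00935 with the replicate block, and −0.49 with 0.00974 without the filter). With time in nontarget cells ESRP2 had −0.54 with groups apart (edgeR adjusted p = 0.13), which was called without the filter (0.0145), with only those 2 groups (0.0499) and without replicate 3 of every group (−0.79, edgeR adjusted p = 0.00114). The exons of ESRP2 overlap those of NFATC3 on the opposite strand. GRHL1, the grainyhead-like factor with counts, was not called either (0.98 long-term, SE 0.452, edgeR adjusted p = 0.116, 23 against 51 counts).

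The surface serine protease matriptase, encoded by ST14, is held in check by the Kunitz inhibitors SPINT1 and SPINT2. SPINT1 (ENSG00000166145.14, chr15:40844018-40858207, plus strand) had 24.5, 25.2 and 23.7 CPM in short-term nontarget and 22.3, 24.6 and 31.5 CPM in short-term knockdown cells, and 28.1, 28.5 and 31.1 CPM in long-term nontarget and 9.01, 7.63 and 10.7 CPM in long-term knockdown cells. The long-term groups were far apart and the short-term groups overlapped (−1.66, SE 0.157, edgeR adjusted p = 4.21e-07 and 0.09, edgeR adjusted p = 0.796), and the effects differed by −1.74 (SE 0.214, edgeR adjusted p = 2.09e-05). SPINT2, with 176.1 to 270.3 CPM, had a log2 fold change of 0.18 in short-term cells (edgeR adjusted p = 0.404) and of 0.12 in long-term cells (0.497), and ST14 itself had 103 counts in all (0.57 and 0.18, edgeR adjusted p = 0.412 and 0.789). MUC1, the transmembrane mucin of apical surfaces (ENSG00000185499.16, chr1:155185824-155192916, minus strand), had 6.7, 6.19 and 9.7 CPM in long-term nontarget and 3.12, 2.49 and 4.58 CPM in long-term knockdown cells (−1.11, SE 0.238, edgeR adjusted p = 0.0017), and 9.98, 7.29 and 8.17 against 7.34, 7.75 and 8.67 CPM short-term (−0.11, edgeR adjusted p = 0.834). Its interaction, −1.01 (SE 0.318, edgeR adjusted p = 0.0441), was lost with DESeq2 (0.0637) and without any 1 of 8 of the 12 libraries (edgeR adjusted p up to 0.124).

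Of the EMT transcription factors, SNAI2 (Slug), a repressor of junction genes, was lower in both knockdowns. It had 48.5, 46.5 and 38.0 CPM in short-term nontarget and 26.1, 28.8 and 24.4 CPM in short-term knockdown cells, and 52.0, 54.5 and 45.2 CPM in long-term nontarget and 20.7, 21.4 and 14.1 CPM in long-term knockdown cells. Every knockdown library was below every nontarget library. SNAI2 changed by −0.74 short-term (SE 0.149, edgeR adjusted p = 0.00355) and by −1.41 long-term (SE 0.152, edgeR adjusted p = 1.9e-06). The difference of −0.67 (SE 0.212, edgeR adjusted p = 0.0452) was lost without any 1 of 9 of the 12 libraries (up to 0.114), and the fall from short-term to long-term knockdown cells (−0.48, edgeR adjusted p = 0.0297) was lost without short-term knockdown replicate 1 or 2 or long-term knockdown replicate 3 (up to 0.11) and with only those 2 groups (0.0673).

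TWIST1, another EMT factor, had 4.15, 4.49 and 6.86 CPM in long-term nontarget and 7.51, 7.78 and 12.4 CPM in long-term knockdown cells (0.78, SE 0.261, edgeR adjusted p = 0.0321), a call lost without long-term nontarget replicate 1 or 2 or long-term knockdown replicate 3 (up to 0.139). ZEB2 had 11.5, 10.2 and 10.4 CPM in short-term nontarget and 14.8, 19.0 and 13.1 CPM in short-term knockdown cells (0.54, SE 0.165, edgeR adjusted p = 0.0449), a call lost with DESeq2 (adjusted p = 0.0747), without the filter (0.0679), with only those 2 groups (0.0521) and without any 1 of 5 of the 6 libraries, all but short-term knockdown replicate 3 (edgeR adjusted p up to 0.215). It was lower in long-term than in short-term knockdown cells (−0.69, SE 0.166, edgeR adjusted p = 0.00483). SNAI1 (Snail), with 19.5 to 34.7 CPM, ZEB1, with 16.1 to 27.7 CPM, and FOXC2, with 120 counts in all, were called in no comparison; their long-term log2 fold changes were 0.20, 0.08 and −0.91 (edgeR adjusted p = 0.54, 0.794 and 0.172).

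The mesenchymal markers did not move as one. VIM, which encodes vimentin, had 1061.5, 977.6 and 945.3 CPM in short-term nontarget, 1083.8, 1063.6 and 1150.1 CPM in short-term knockdown, 848.0, 808.8 and 860.8 CPM in long-term nontarget and 1018.2, 851.1 and 1055.6 CPM in long-term knockdown cells. It was called in no comparison (0.14 short-term with an edgeR adjusted p of 0.414, and 0.22 long-term with 0.105), and with the replicate block the long-term value was 0.21 and was called (edgeR adjusted p = 0.0349). VIM overlaps VIM-AS1 and AL133415.1 on the opposite strand, which had 17256 and 13644 counts against 81598 for VIM.

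S100A4, the calcium-binding protein also called fibroblast-specific protein, had 4.37, 4.1 and 3.93 CPM in short-term nontarget and 11.1, 16.7 and 8.49 CPM in short-term knockdown cells, and 6.97, 8.05 and 10.4 CPM in long-term nontarget and 6.12, 6.16 and 6.11 CPM in long-term knockdown cells. It was lowest in the short-term nontarget libraries. It rose by 1.49 after short-term knockdown (SE 0.234, edgeR adjusted p = 0.000436) and with time in nontarget cells (0.98, SE 0.24, edgeR adjusted p = 0.0158), and had −0.45 after long-term knockdown (edgeR adjusted p = 0.155). The effects differed by −1.94 (SE 0.327, edgeR adjusted p = 0.000493). The rise with time was lost without any short-term nontarget library or without long-term nontarget replicate 3 (edgeR adjusted p up to 0.0858).

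L1CAM, a neural adhesion molecule also found in collecting duct and in many carcinomas, had 236.3, 241.8 and 290.3 CPM in short-term nontarget and 354.5, 403.1 and 496.0 CPM in short-term knockdown cells, and 180.1, 222.4 and 285.2 CPM in long-term nontarget and 123.0, 110.2 and 176.7 CPM in long-term knockdown cells. The groups were apart at both times, in opposite directions. L1CAM changed by 0.70 short-term (SE 0.184, edgeR adjusted p = 0.0226) and by −0.75 long-term (SE 0.187, edgeR adjusted p = 0.00656), and they differed by −1.45 (SE 0.263, edgeR adjusted p = 0.00135). The short-term call was lost without short-term nontarget replicate 1 or 2 or short-term knockdown replicate 3 (up to 0.0875).

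Replicate 3 was the highest of its group in all 4 groups for KRT7, KRT80, CRB3 and L1CAM, 4 of the 34 members tested, against 6.17% of all genes tested. Without replicate 3 of every group, an alternative chosen after seeing the data, 5 mesenchymal members were called after long-term knockdown in place of 3, and 5 in place of 3 in the interaction, while the share of all genes called went from 29.5% to 33.8% and from 13.4% to 16.6%. The 2 added long-term were SNAI1 (0.44, edgeR adjusted p = 0.042) and FOXC2 (−1.46, 0.0372). In that fit KRT8, KRT18, KRT80, OCLN and PARD3 were also called lower after long-term knockdown, at −0.29, −0.36, −0.34, −1.60 and −0.23 (edgeR adjusted p from 0.00068 to 0.04). GRHL1 was called higher (1.5, edgeR adjusted p = 0.0401), and ESRP1 was no longer called (−0.75, edgeR adjusted p = 0.198).

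Other genes of the same systems, from lists of general knowledge, are given by count and against the shares of all genes above. The lists were drawn up with earlier results of these data known, so their counts are a description and not independent evidence. Of 28 other tight junction genes tested, 9 were lower and 3 higher after long-term knockdown (median −0.07), against 4 lower and 2 higher short-term. CLDN2, the pore-forming claudin of proximal tubule, rose from 13.8, 14.6 and 25.7 to 62.1, 64.9 and 63.3 CPM long-term (1.79, SE 0.189, edgeR adjusted p = 1.49e-06), in the opposite direction from CLDN1 and CLDN4. The angiomotins AMOTL2 and AMOT had log2 fold changes of −1.12 and 0.98 long-term (edgeR adjusted p = 0.000126 and 0.000495). Both were called in the same directions short-term (−0.65 and 0.63, edgeR adjusted p = 0.022 and 0.0289).

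Of 16 desmosome and hemidesmosome genes tested, 7 were lower and 2 higher after long-term knockdown (median −0.33), against 1 lower and 4 higher short-term (median 0.22). Those lower long-term included the desmosomal cadherin DSC3 (−1.59), PERP (−1.26), the plakoglobin gene JUP (−0.93) and the plakophilin PKP2 (−0.88), with edgeR adjusted p from 2.58e-08 to 0.000404. Of 14 other epithelial genes tested, 10 were lower and 1 higher (median −1.18), against 0 lower and 5 higher short-term. PRSS8, the membrane protease prostasin that acts with matriptase, had 6.03, 10.4 and 12.6 CPM in long-term nontarget and 0.116, 0.147 and 0.509 CPM in long-term knockdown cells, or 209 and 5 counts (edgeR adjusted p = 3.15e-07). In short-term knockdown cells PRSS8 was higher than in short-term nontarget cells (0.96, edgeR adjusted p = 0.0233). P-cadherin (CDH3) had 16.5, 14.6 and 16.8 CPM in long-term nontarget and 1.5, 0.587 and 1.36 CPM in long-term knockdown cells (edgeR adjusted p = 4.36e-08). Relative to short-term nontarget cells, CDH3 was higher in short-term knockdown cells (1.55, edgeR adjusted p = 0.000105) and in long-term nontarget cells (1.03, edgeR adjusted p = 0.00462). The apical trafficking protein MAL2 had −3.20 long-term (edgeR adjusted p = 1.56e-10). Of 48 other keratin genes, 28 had no count and 4 were tested, of which 2 were lower after long-term knockdown and 0 higher.

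Of 23 other EMT and mesenchymal genes tested, 8 were lower and 5 higher after long-term knockdown (median −0.13), against 3 and 3 short-term. Fibronectin (FN1) had 1363.8, 1481.5 and 2036.5 CPM in long-term nontarget and 312.9, 288.0 and 251.3 CPM in long-term knockdown cells (−2.52, SE 0.163, edgeR adjusted p = 8.6e-09). In short-term knockdown cells FN1 was higher than in short-term nontarget cells (0.65, edgeR adjusted p = 0.011). The 40 tested genes nearest to FN1 had a median of 0.40 in that short-term comparison, and their part in the FN1 value was not tested. Fibrillin-1 (FBN1) and transgelin (TAGLN) were lower in both knockdowns (−0.74 and −0.61 in short-term cells, −2.96 and −2.32 in long-term cells, with edgeR adjusted p up to 0.0212), and the collagen cross-linking enzyme LOX was higher in both (0.88 and 1.24, edgeR adjusted p = 0.00249 and 2.92e-05).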

How the data were processed

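RNA from 12 HK2 cultures was sequenced as polyA-selected TruSeq libraries. Per the study's methods and the labels, the authors used fastp for trimming and STAR in 2-pass mode for mapping to GRCh38, and deposited whole-number counts per gene from featureCounts, used here. Versions, annotation release and strand setting are not given in the sources used here. The deposited normalized columns, treated here as a score since the authors rounded them, lie within 1 of the counts divided by 1 factor per library and were not used otherwise. The per-library count files and the series table held the same counts.

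Of 58288 gene IDs, 55661 matched GENCODE 29 with the same version, 2364 with another and 263 not at all. Genes kept by filterByExpr (13959, with 99.8% of the counts) were fitted in edgeR 4.0.16 (R 4.3.3, limma 3.58.1) with TMM factors and robust quasi-likelihood, 1 term per group, and Benjamini-Hochberg adjustment. On simulated counts, 91.5% to 97.5% of 200 genes changed 3-fold were recovered, and 3.47% to 7.62% of the calls were false, depending on the comparison. The simulation gave every gene the same spread between replicates (12%) and no replicate effect. Its rates therefore may not hold for the real counts or for changes below 3-fold. Alternatives were DESeq2 1.42.0, RLE factors, other filters, a call rule with at least a 2-fold change, only the 2 groups compared, the replicate block, each library left out and, chosen after seeing the data, replicate 3 of every group left out and a smaller prior count. Same-numbered replicates deviated together in the long-term groups (correlations 0.284, 0.123 and 0.458, with replicate 2 at 0.231 with another number) and in the knockdown groups (0.223, 0.292 and 0.455), where the numbers were taken to pair the libraries, and not in the other comparisons. The replicate block nevertheless fitted 1 shared effect per replicate number over all 4 groups at the same time.

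All 43 members are accounted for, and up to 4 genes of each further list are named, those called after long-term knockdown with the largest changes, provided that they averaged 50 or more counts and their groups did not overlap. Some genes that this rule selects are not reported here. Members and lists were chosen with earlier results of these data known. Replicates are labeled biological, with nothing said of separate clones, so p-values measure the spread between these cultures. Floors for counts of 0 (3 counts) cover counting error only. Promoters came from RefSeq (GRCh38.p14).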

Additional observations from a re-analysis of the deposited data

Results flagged for a closer look

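The effect of FLCN knockdown on 14 members differed between long-term and short-term culture by the interaction test of edgeR (adjusted p from 2.23e-08 to 0.0478). Of all genes tested 13.4% were called, 8.43% with the lower long-term effect. The long-term log2 fold change minus the short-term one was −3.17 for CGN, −2.26 for CLDN1, −2.02 for KRT7, −1.96 for CLDN4, −1.94 for S100A4, −1.92 for OCLN and −1.74 for SPINT1. It was −1.45 for L1CAM, −1.20 for CRB3, −1.10 for EPCAM, −1.10 for KRT80, −1.01 for MUC1, −0.67 for SNAI2 and −0.54 for KRT18. The calls of OCLN, MUC1, SNAI2 and KRT18 were lost without any 1 of 8 to 10 of the 12 libraries, as given above.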

How the results depend on the processing

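No member changed direction past its test under any alternative run, and RLE factors, the per-library files and a smaller prior count changed no call. Over the values of the 34 members tested in the 5 comparisons, DESeq2 added 3 calls and lost 5, no filter added 7 and lost 2, and fitting only the 2 groups added 1 and lost 4. Leaving out replicate 3 of every group added 22 and lost 3. Counts of members called moved as follows. A 2-fold limit left 1 of 4 epithelial and 1 of 4 mesenchymal members short-term, 7 of 13 and 1 of 3 after long-term knockdown, 1 of 3 and 0 of 1 with time in nontarget cells, and 1 of 4 mesenchymal members with time in knockdown cells. A mean of at least 10 CPM left 8 of 13 epithelial members after long-term knockdown, 8 of 13 with time in knockdown cells and 0 of 1 mesenchymal member with time in nontarget cells, since members below it were not tested. No filter called 7 epithelial members short-term. Without replicate 3 of every group, 5 mesenchymal members were called after long-term knockdown, 5 in the interaction and 6 epithelial members with time in nontarget cells, with 33.8%, 16.6% and 11.3% of all genes called. Without any 1 library, 2 to 5 epithelial and 2 to 3 mesenchymal members were called short-term, and 0 to 1 mesenchymal member with time in nontarget cells. The share of all genes called is not given for the 2-fold limit, the other filters or the fits without 1 library. Whether members shifted more than other genes under those settings is therefore not known. The cause of these shifts was not tested.

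The replicate block added 17 calls and lost none. It called 15 in place of 11 epithelial members in the interaction, adding KRT8, F11R, TJP1 and ELF3, while the calls over all genes went from 13.4% to 20.6%. After long-term knockdown it called 15 in place of 13 epithelial and 4 in place of 3 mesenchymal members, adding KRT80, PARD3 and VIM. The calls over all genes there went from 29.5% to 36.8%. It called 8 epithelial members short-term, and 6 epithelial and 2 mesenchymal members with time in nontarget cells, comparisons where same-numbered libraries did not deviate together (correlations 0.0172, 0.111 and 0.054, and −0.034, 0.0767 and 0.025). Over all genes it raised the calls from 1441 to 2359 short-term and from 1054 to 1786 with time in nontarget cells. At 5825779 to 8991051 counts per library, the scarce members OCLN, ESRP1, GRHL1, ST14 and FOXC2 had standard errors above 0.3 on the log2 scale. Changes well above that size were left uncalled in some of them, such as OCLN (−1.11, SE 0.463) and GRHL1 (0.98, SE 0.452) after long-term knockdown.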
